A study of Mus musculus with 12 samples.

Results

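The response of sorted hippocampal cells to astrocytic A2A receptor overexpression was contrasted between an astrocyte-enriched and a microglia-enriched fraction. All 12 libraries of the series were used, and of the 32783 gene identifiers found in either count table the 25442 found in both were kept. For each gene the log2 difference between AAV-A2A and AAV-GFP libraries was taken in each fraction, and the interaction is the ACSA-2 difference minus the CD11b difference. A negative interaction therefore marks a gene that was lower, relative to its control, in the ACSA-2 fraction than in the CD11b fraction. Of the 25442 genes, 18602 passed the filter on low counts and were tested.

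Male C57Bl6/J mice received bilateral injections into hippocampal CA1 at 2 months of age and were killed at 4 months. The vector was AAV2/9_GfaABC1D-Bglob-A2AR-WPRE or, in controls, AAV2/9-GfaABC1D-Bglob-GFP-WPRE, so that every animal carried an AAV with the astrocyte-selective GfaABC1D promoter and only the cargo differed. Hippocampal cells were labelled first with magnetic beads against ACSA-2, a surface antigen of astrocytes, and the unlabelled cells then with beads against CD11b, a surface integrin of microglia and other myeloid cells. Each of the 4 groups held 3 libraries, named DDBM303, DDBM306 and DDBM307 (ACSA-2, AAV-GFP), DDBM309, DDBM310 and DDBM313 (ACSA-2, AAV-A2A), DDBM316, DDBM317 and DDBM319 (CD11b, AAV-GFP) and DDBM321, DDBM322 and DDBM325 (CD11b, AAV-A2A), and values below follow this order. For the astrocyte data the study counts its replicates as animals, while the sources used here do not say so for the CD11b libraries, nor whether an ACSA-2 and a CD11b library came from the same animal. The p-values measure the spread between these libraries, which may be technical in the CD11b fraction.

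The A2A receptor is a G protein-coupled receptor for extracellular adenosine that acts through Gs to raise cyclic AMP, which activates protein kinase A and the transcription factor CREB. Astrocytes take up glutamate and potassium, supply metabolites to neurons and control the extracellular level of adenosine, while microglia are the resident phagocytes of the brain and receive signals from astrocytes such as cytokines, complement and nucleotides. The contrast asks which genes responded alike in both fractions to a receptor placed under an astrocyte promoter, and which responded in opposite directions.

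The labelled cell types were checked against 12 markers each. Summed astrocyte markers lay between 37618 and 57647 CPM (a unit of relative abundance, each count divided by its TMM-scaled library size) in the ACSA-2 libraries and between 498 and 4881 CPM in the CD11b libraries. Summed microglia markers lay between 1161 and 1481 CPM in the ACSA-2 libraries and between 14190 and 98827 CPM in the CD11b libraries. Within the CD11b fraction 3 libraries stood apart, AAV-GFP DDBM316 and DDBM317 and AAV-A2A DDBM325, with 76102, 63241 and 30981 CPM of 11 choroid plexus markers and 14190, 28043 and 32398 CPM of microglia markers. The other CD11b libraries, AAV-GFP DDBM319 and AAV-A2A DDBM321 and DDBM322, had 137, 85.0 and 14.2 CPM of choroid plexus markers and 95494, 98827 and 72367 CPM of microglia markers. The split was thus unequal between the vectors, and results are also given with a term for these libraries in the fit. Erythrocyte markers summed to 2616, 6217 and 1095 CPM in the CD11b AAV-GFP libraries and to 295, 268 and 85.7 CPM in the AAV-A2A ones, without overlap, and 6 of their 8 genes were lower in AAV-A2A without overlap. In the same fraction summed neuron markers (138 to 299 CPM in AAV-GFP and 70.7 to 135 CPM in AAV-A2A), ependymal markers (336 to 822 and 104 to 247 CPM) and the share of counts on mitochondrial mRNAs (0.215% to 1.68% and 0.180% to 0.196%) were also lower in AAV-A2A without overlap. In the ACSA-2 fraction the sums of oligodendrocyte precursor markers (378 to 581 CPM in AAV-GFP and 161 to 331 CPM in AAV-A2A) and dentate neuroblast markers (46.5 to 159 and 15.4 to 29.4 CPM) were lower in AAV-A2A, and the choroid plexus sum (694 to 837 and 840.0 to 1266 CPM) was higher. The part of these differences in the results below was not tested. In a bulk fraction, fewer cells of a type and less RNA per cell cannot be told apart. Total counts on genes went from 33937067 to 49217553 in the ACSA-2 and from 36098295 to 53206974 in the CD11b libraries.

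**Figure D1:**
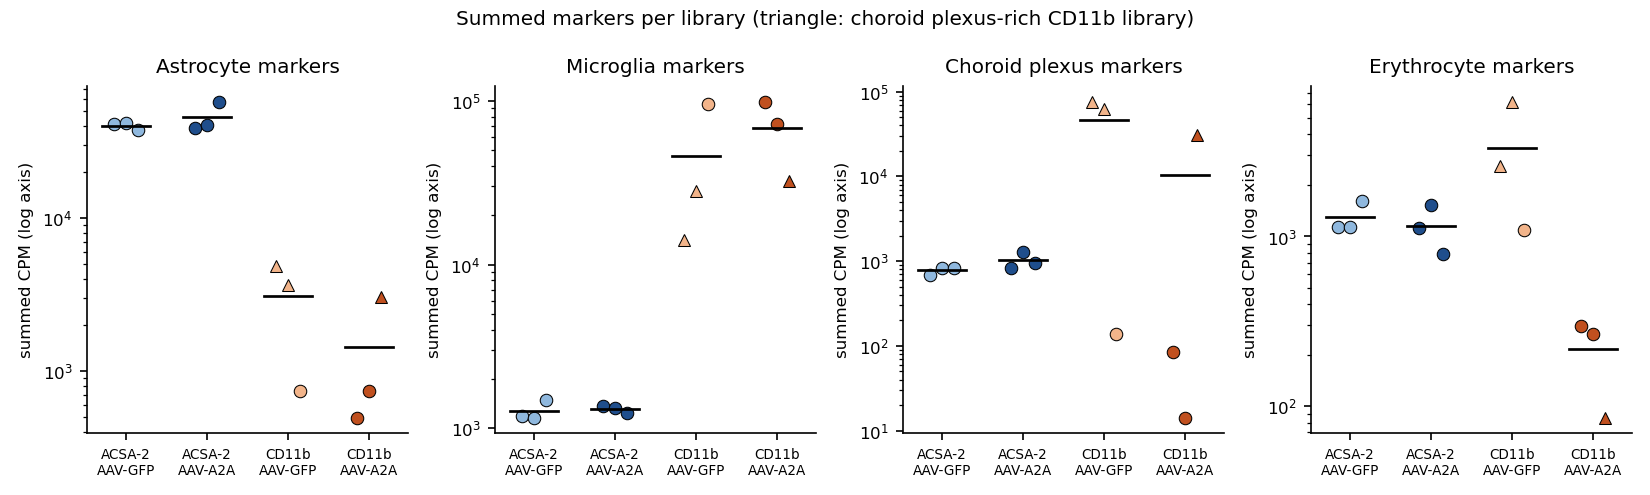
Summed CPM (log axes) of astrocyte, microglia, choroid plexus and erythrocyte markers in each of the 12 libraries, grouped by fraction and vector, with a line at the mean of 3 and triangles for the choroid plexus-rich CD11b libraries. The choroid plexus sum splits the CD11b libraries into 30981 to 76102 CPM and 14.2 to 137 CPM, and the erythrocyte sum separates the CD11b vector groups, as do the neuron and ependymal sums, which are not drawn.

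A second property moved with the vector in opposite directions in the fractions. The level of long transcripts relative to short ones was measured as a slope per doubling of the length of the longest annotated transcript. Levels were log2 values against the mean of their fraction. The 11619 genes used had a mean of at least 5 CPM over all 12 libraries. In the ACSA-2 fraction the slope was 0.0499, 0.0986 and 0.105 in AAV-GFP and -0.0397, -0.113 and -0.101 in AAV-A2A libraries. In the CD11b fraction it was -0.186, -0.275 and -0.215 in AAV-GFP and -0.0758, 0.411 and 0.341 in AAV-A2A libraries. The vector groups did not overlap in either fraction, long transcripts being relatively lower in AAV-A2A in the ACSA-2 and higher in the CD11b libraries, and library DDBM321 lay nearest to the controls of its fraction.

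Cut into 5 classes of transcript length of equal size, the same genes had a median interaction of 0.81, 0.12, -0.31, -0.69 and -0.82 on the log2 scale from the shortest to the longest. The shortest class spans up to 1984 bases and the longest starts at 5282 bases. Removing each library's smooth trend on length and GC content with an offset in the fit brought these medians to 0.14, 0.02, -0.04, -0.08 and -0.16. The part of length in any single result was not tested, and interactions are given below also with this offset, an alternative chosen after the data were seen.

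**Figure D2:**
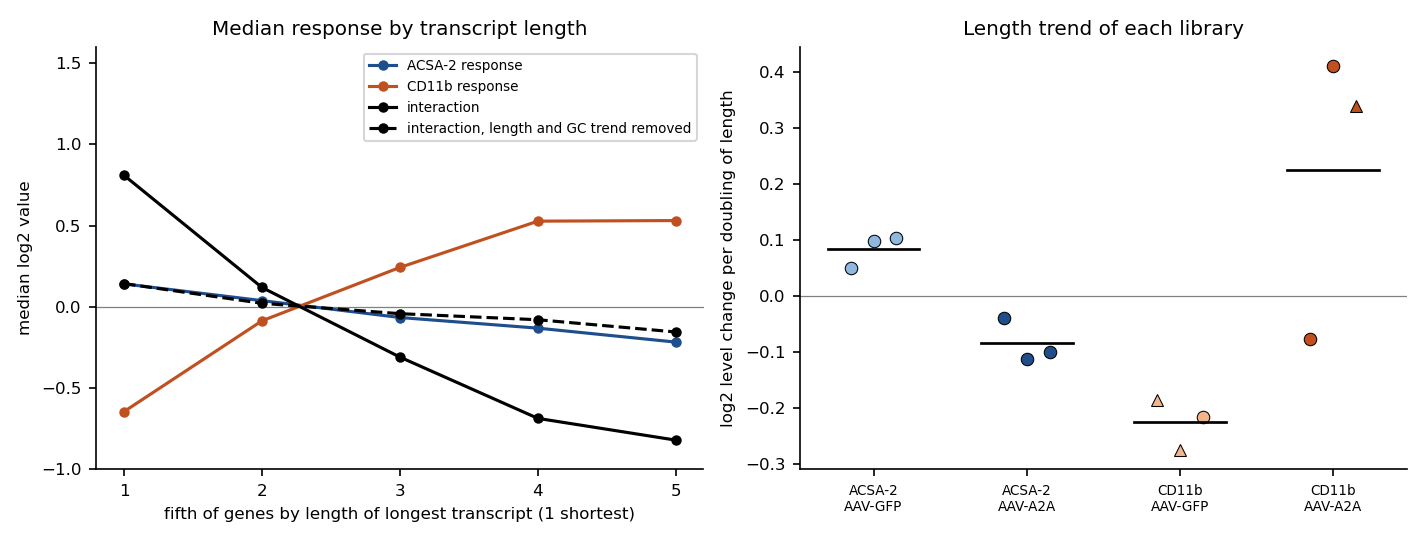
The left panel plots the median log2 response of 5 classes of transcript length in both fractions and their interaction, also with the length and GC trend removed. The right panel plots the slope of log2 level per doubling of transcript length for each library. Slopes of the vector groups do not overlap in either fraction, and the median interaction runs from 0.81 in the shortest to -0.82 in the longest class.

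Adora2a (ENSMUSG00000020178, chromosome 10, 75316877 to 75334784, plus strand, GRCm38), the gene the vector carries, was the check of the labels. In the ACSA-2 fraction it stood at 25.0, 23.2 and 25.6 CPM in AAV-GFP and at 764, 655 and 927 CPM in AAV-A2A libraries. In the CD11b fraction it stood at 3.77, 4.67 and 8.30 CPM in AAV-GFP and at 18.6, 45.2 and 15.0 CPM in AAV-A2A libraries. Every AAV-A2A library was thus above every control of its fraction, and the lowest CD11b AAV-A2A value lay below each ACSA-2 control. Reads from the vector and from the mouse's own gene were not told apart in these counts.

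The log2 response of Adora2a was 4.99 (SE 0.49) in the ACSA-2 and 2.24 (SE 0.44) in the CD11b fraction. The difference of 2.75 (SE 0.60) did not pass the threshold (edgeR quasi-likelihood test, Benjamini-Hochberg adjusted p = 0.0621), while the mean of both responses, 3.61 (SE 0.33), passed with an adjusted p of 0.00305 by edgeR. With the length offset and a term for the choroid plexus-rich libraries together the interaction was 3.37 and passed (edgeR adjusted p = 0.0126). The astrocyte marker sums of the CD11b AAV-A2A libraries were 498, 747 and 3042 CPM in the same order, DDBM325 being rich in choroid plexus transcripts, and the part of astrocyte transcripts in these Adora2a levels was not tested.

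Of the 18602 genes tested, 68 had a lower response in the ACSA-2 than in the CD11b fraction at an adjusted p under 0.05 and an absolute log2 value over 0.32 (0.366% of genes), and 7 had a higher one (0.0376%), by edgeR's quasi-likelihood test. The 75 adjusted p-values lay between 0.0438 and 0.0492, all close to the threshold, and 3645 genes had an unadjusted p under 0.05. Replicates varied widely, with a biological coefficient of variation of 0.676 over both fractions. The number called changed with the processing. It was 0 under 11 of 26 alternatives and 1552 with DESeq2, and leaving out any 1 of 8 of the 12 libraries took it to 0, while it was 830 without DDBM321 and 1286 without DDBM319. The median interaction over all tested genes was 0.10, or 0.18 and 0.29 with median-of-ratios scaling and with library size alone.

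Among the 68 genes lower in the ACSA-2 contrast, 67 had opposite signs in the fractions, negative in ACSA-2 and positive in CD11b. Their median log2 response was -1.63 in the ACSA-2 and 1.13 in the CD11b fraction. The 68 genes were selected by the interaction in these same libraries, so their signs and separation are no independent support. In 51 of them the vector groups did not overlap in either fraction, as in 629 of the 11619 genes of at least 5 CPM. Of the 68, 50 were also called when the ACSA-2 fraction was tested alone. In that test 524 genes fell (3.19% of 16451) and 29 rose (0.176%), while in the CD11b fraction alone 0 of 16949 genes passed in either direction (0%), with 2704 at an unadjusted p under 0.05 and 798 called by DESeq2. With a term for the choroid plexus-rich libraries the CD11b calls remained 0 in that fraction's own fit and were 308, 176 higher and 132 lower, in the fit of all 12 libraries. These genes were long, with a median longest transcript of 5217.5 bases against 3418 over the genes of at least 5 CPM. With the length offset all 75 genes kept the sign of their interaction, but 0 were called (adjusted p from 0.0998 to 0.237 by edgeR, with 2575 of all genes at an unadjusted p under 0.05), and with the offset and the choroid plexus term together 33 of the 75 were called among 54.

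Axl was among the called genes with the largest negative interactions. Axl (ENSMUSG00000002602, chromosome 7, 25757273 to 25788705), a receptor tyrosine kinase that recognises phosphatidylserine-bound ligands on dying cells, stood at 433, 461 and 506 CPM in ACSA-2 AAV-GFP and at 213, 141 and 194 CPM in AAV-A2A libraries. CD11b libraries had it at 28.1, 25.2 and 48.5 CPM in AAV-GFP and at 109, 169 and 156 CPM in AAV-A2A libraries. Every AAV-A2A library was thus below the controls in one fraction and above them in the other. The log2 responses were -1.35 (SE 0.31) and 2.09 (SE 0.31), and the interaction was -3.44 (SE 0.44, edgeR adjusted p = 0.0438). Axl fell in the ACSA-2 fraction tested alone (edgeR adjusted p = 0.00567), and its interaction was -2.65 with the length offset (adjusted p = 0.0998) and -2.58 with the offset and the choroid plexus term, which again passed (adjusted p = 0.0126).

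Il6st (ENSMUSG00000021756, chromosome 13, 112464070 to 112510086), which encodes gp130, the signal-transducing subunit shared by interleukin-6 family receptors, stood at 85.8, 70.7 and 89.1 CPM in ACSA-2 AAV-GFP and at 31.5, 31.7 and 28.2 CPM in AAV-A2A libraries. In the CD11b fraction its level was 60.8, 73.2 and 146 CPM in AAV-GFP and 224, 682 and 374 CPM in AAV-A2A libraries. The vector groups were again apart in both fractions and in opposite order. The interaction was -3.62 (SE 0.60, edgeR adjusted p = 0.0438), or -3.00 with the length offset. The ACSA-2 response was -1.43 (SE 0.42) in the fit of all libraries. Tested alone, that fraction gave -1.40, which passed (edgeR adjusted p = 0.00421).

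Both Notch receptors called, Notch1 and Notch2, which receive signals from ligands on neighbouring cells, went the same way. Notch2 (ENSMUSG00000027878, chromosome 3, 98013527 to 98150361) stood at 216, 159 and 184 CPM in ACSA-2 AAV-GFP and at 46.7, 28.0 and 37.0 CPM in AAV-A2A libraries. Its CD11b level was 85.1, 77.7 and 104 CPM in AAV-GFP and 90.2, 205 and 452 CPM in AAV-A2A libraries, so that in this fraction the groups overlapped. The interaction of Notch2 was -3.81 (SE 0.67, edgeR adjusted p = 0.0438), and that of Notch1, whose groups did not overlap in either fraction, was -3.23 (SE 0.59, adjusted p = 0.0459). Among the CD11b libraries the Notch2 difference was 0.39 between the choroid plexus-poor and 2.47 between the rich ones.

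C4b (ENSMUSG00000073418, chromosome 17, 34728380 to 34743882), a complement component made by reactive astrocytes, differed between vectors mainly in the CD11b libraries. It stood at 85.7, 107 and 84.4 CPM in ACSA-2 AAV-GFP and at 113, 99.8 and 99.2 CPM in AAV-A2A libraries, which overlapped. The CD11b level stood at 3.15, 1.40 and 6.84 CPM in AAV-GFP and at 29.9, 77.3 and 74.4 CPM in AAV-A2A libraries. The interaction was -3.82 (SE 0.71, edgeR adjusted p = 0.0479) with an ACSA-2 response of 0.17 (SE 0.48), and it was -2.74 with the length offset. The CD11b response of C4b did not pass when that fraction was tested alone (edgeR adjusted p = 0.28).

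Polr2a and Adar were called in the same direction. Polr2a (ENSMUSG00000005198, chromosome 11, 69733997 to 69758637), the largest subunit of RNA polymerase II, stood at 157, 90.6 and 104 CPM in ACSA-2 AAV-GFP and at 31.8, 25.7 and 17.4 CPM in AAV-A2A libraries. Its CD11b level was 29.1, 42.7 and 55.6 CPM in AAV-GFP and 67.1, 98.5 and 126 CPM in AAV-A2A libraries. The order of the vector groups was thus reversed between the fractions, with an interaction of -3.43 (SE 0.50, edgeR adjusted p = 0.0438) and of -2.52 with the length offset. Adar, which edits adenosine to inosine in double-stranded RNA, stood at 5.36, 11.3 and 13.5 CPM and at 3.41, 3.90 and 2.56 CPM in the ACSA-2 AAV-GFP and AAV-A2A libraries. In the CD11b libraries Adar stood at 11.1, 19.0 and 25.0 CPM against 44.5, 96.4 and 76.4 CPM, again without overlap, and its interaction was -3.59 (SE 0.62, edgeR adjusted p = 0.0438). Other transcription regulators called, Etv3, Mef2d, Ncoa2, Hcfc1, Kdm5b and Arid2, were picked for mention after their values were seen.

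Man2a2, a Golgi mannosidase that trims N-glycans, and Rhbdf2, the iRhom2 partner needed to mature the TNF-releasing protease ADAM17, had interactions of -3.60 (SE 0.65) and -3.82 (SE 0.68), each with an edgeR adjusted p of 0.0438. Rhbdf2 was mainly a transcript of the CD11b fraction, at 18.1, 19.0 and 35.2 CPM in AAV-GFP and 43.5, 91.9 and 59.5 CPM in AAV-A2A libraries. The ACSA-2 libraries had 2.78, 3.32 and 3.18 CPM in AAV-GFP and 0.84, 0.21 and 0.72 CPM in AAV-A2A. Its responses were -2.39 (SE 0.50) in the ACSA-2 and 1.43 (SE 0.46) in the CD11b fraction, so the larger part rests on low levels. The ACSA-2 response did not pass when that fraction was tested alone (edgeR adjusted p = 0.213). Irf4, a transcription factor of myeloid and lymphoid cells, and Itgal, the integrin subunit CD11a, were CD11b-fraction genes with no count in any ACSA-2 AAV-A2A library. Irf4 stood at 0.844, 0.915 and 1.77 CPM in CD11b AAV-GFP and at 5.56, 6.45 and 5.55 CPM in AAV-A2A libraries. Itgal stood at 0.806, 1.83 and 3.97 CPM in CD11b AAV-GFP and at 20.4, 12.1 and 33.9 CPM in AAV-A2A libraries. Neither gene's CD11b groups overlapped. Against a floor of 3 counts over the group, the ACSA-2 AAV-A2A libraries were at least 37.2-fold lower than their controls for Irf4 and at least 15.4-fold lower for Itgal, from 99 and 41 counts in the controls. These controls stood at 0.153, 1.95 and 0.747 CPM for Irf4 and at 0.689, 0.180 and 0.214 CPM for Itgal, and 1 library held most counts of each. Without DDBM306 the bound for Irf4 was 18.4-fold, from 34 counts, and without DDBM303 that for Itgal was 8.17-fold, from 14 counts. The fitted interactions of both (edgeR adjusted p = 0.0438 for each) depend on the prior count and are no bound. The floor covers counting error only, since reads amplified by PCR without molecular identifiers are not independent molecules.

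**Figure D3:**
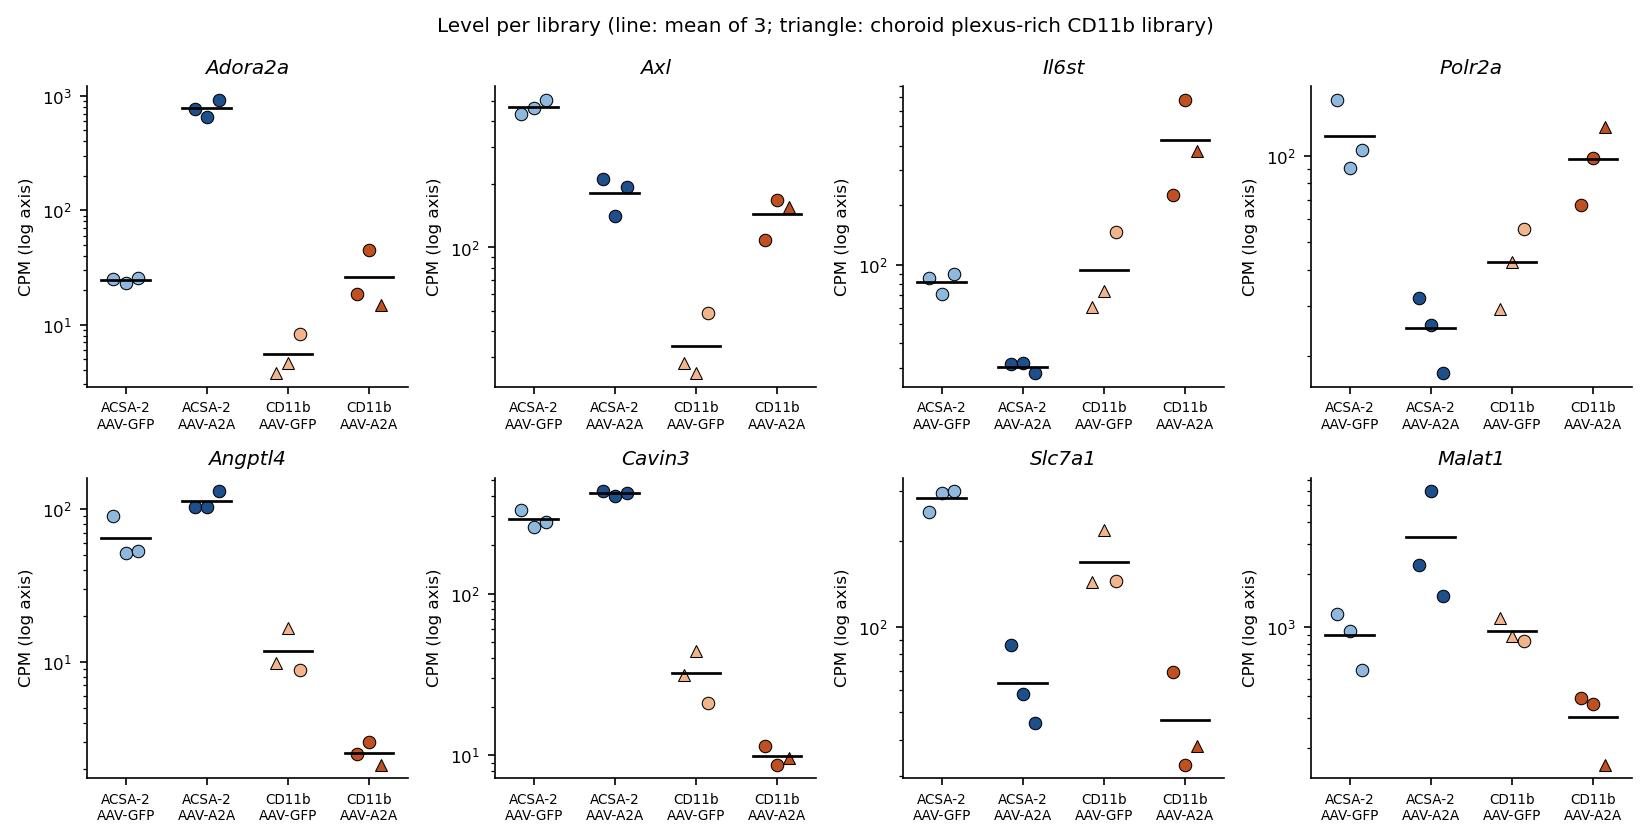
CPM (log axes) of 8 genes in each library, grouped by fraction and vector, with a line at the mean of 3 libraries and triangles for the choroid plexus-rich CD11b libraries. Axl, Il6st and Polr2a lie lower in AAV-A2A in the ACSA-2 and higher in the CD11b fraction, Angptl4, Cavin3 and Malat1 the other way, and Adora2a and Slc7a1 move the same way in both.

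The 7 genes with a higher response in the ACSA-2 fraction were mostly genes of that fraction. Angptl4 (ENSMUSG00000002289, chromosome 17, 33773750 to 33781830), a secreted inhibitor of lipoprotein lipase, stood at 90.1, 51.6 and 53.6 CPM in ACSA-2 AAV-GFP and at 103, 104 and 131 CPM in AAV-A2A libraries. Its level among CD11b libraries was 9.88, 16.6 and 8.80 CPM in AAV-GFP and at 2.48, 2.99 and 2.12 CPM in AAV-A2A libraries. The groups were apart in both fractions and opposite in order, with responses of 0.80 (SE 0.31) and -2.22 (SE 0.33) and an interaction of 3.01 (SE 0.45, edgeR adjusted p = 0.0438). Neither response passed when its fraction was tested alone (edgeR adjusted p = 0.141 and 0.28). The interaction of Angptl4 was 3.29 with the length offset and 3.20 with the offset and the choroid plexus term, the latter passing (edgeR adjusted p = 0.0373).

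Cavin3 (ENSMUSG00000037060, chromosome 7, 105480083 to 105482300), a coat protein of caveolae, stood at 328, 256 and 277 CPM in ACSA-2 AAV-GFP and at 429, 400.4 and 416 CPM in AAV-A2A libraries. Its CD11b level was 31.6, 44.1 and 20.9 CPM in AAV-GFP and 11.4, 8.76 and 9.60 CPM in AAV-A2A libraries. It was again opposite without overlap, with an interaction of 2.23 (SE 0.40, edgeR adjusted p = 0.0438) and of 1.93 with the length offset. Ankrd66 and 6330403K07Rik overlapped between vector groups in the ACSA-2 fraction and were lower in the CD11b AAV-A2A libraries, Ankrd66 at 3.53, 7.23 and 4.15 CPM against 0.513, 0.71 and 0.526 CPM and 6330403K07Rik at 5.36, 9.06 and 3.73 CPM against 1.17, 0.976 and 1.41 CPM. Kcng4, a modulatory potassium channel subunit, had 98 counts over the CD11b AAV-GFP libraries and none in the AAV-A2A ones, a level at least 30.9-fold lower, or 20.5-fold without DDBM317. The noncoding A430027H14Rik had 4.06, 4.97 and 3.44 CPM in ACSA-2 AAV-GFP and 9.15, 7.68 and 6.23 CPM in AAV-A2A libraries, and under 1 CPM in every CD11b library. Since 6 of the 7 are mainly ACSA-2 transcripts, the astrocyte marker sum of the CD11b libraries belongs beside them. It was 4881, 3674 and 741 CPM in AAV-GFP and 498, 747 and 3042 CPM in AAV-A2A libraries, which overlapped, and its part in these interactions was not tested.

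The 4 genes next in order of p on the positive side were not called. Nktr, a cyclophilin-related protein with splicing-type repeats, stood at 6.89, 8.68 and 6.73 CPM in ACSA-2 AAV-GFP and at 19.9, 35.9 and 17.8 CPM in AAV-A2A libraries, and at 66.5, 63.4 and 52.9 against 50.1, 43.6 and 37.1 CPM in the CD11b fraction. Trip11, a Golgi microtubule-associated protein, went the same way, with responses of 1.19 (SE 0.24) and -0.61 (SE 0.24). Nktr and Trip11 rose in the ACSA-2 fraction tested alone (edgeR adjusted p = 0.0228 and 0.0169), and both missed the threshold in the interaction (adjusted p = 0.0508 each). They were long transcripts, of 8950 and 9873 bases, and their interactions were 2.34 and 2.03 with the length offset, not smaller than the 2.20 and 1.80 without it. The metallothionein Mt2 and the fatty acid-binding protein Fabp7, both short and abundant in astrocytes, had interactions of 2.29 (edgeR adjusted p = 0.0521) and 2.38 (adjusted p = 0.0531), which became 1.04 and 0.93 with the offset.

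The promoters of called genes were searched for the cyclic AMP response element, the DNA motif bound by CREB, as TGACGTCA, which reads the same on both strands, and for its shorter core TGACG on either strand, in the RefSeq promoters of GRCm38.p6 from 250 bases before to 50 bases after the gene start. A promoter was held for 12813 of the tested genes, and 3.25% of them had the full motif and 32.4% the core, each full motif also holding the core. Of the 57 genes with a lower ACSA-2 response that had a promoter, 2 held the full motif (3.51%) and 20 the core (35.1%), and of the 4 with a higher one 0 held either. The 2 promoters with the full motif are those of Clasp2, which links microtubules to the cell edge, and Ap2b1, a subunit of the clathrin adaptor, and they are printed with that of Flt1, a gene lower in AAV-A2A in both fractions. Capitals mark the motif in 88 bases of each promoter, read 5′ to 3′ on the strand of the gene.
Ap2b1, chr11:83302610-83302697, plus strand: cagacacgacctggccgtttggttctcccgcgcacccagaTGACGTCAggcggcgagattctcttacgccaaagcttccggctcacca
Clasp2, chr9:113741402-113741489, plus strand: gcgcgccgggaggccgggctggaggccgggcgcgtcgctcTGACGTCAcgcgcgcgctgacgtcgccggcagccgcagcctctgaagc
Flt1, chr5:147726045-147726132, minus strand: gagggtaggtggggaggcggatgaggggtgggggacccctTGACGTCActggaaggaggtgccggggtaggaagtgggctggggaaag

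The motif began 47, 31 and 81 bases before the start of Ap2b1, Clasp2 and Flt1. Ap2b1 stood at 64.8, 74.7 and 80.5 CPM in ACSA-2 AAV-GFP and at 25.8, 18.3 and 26.0 CPM in AAV-A2A libraries, and at 43.1, 45.5 and 57.1 against 72.4, 141 and 121 CPM in the CD11b fraction. Clasp2 stood at 127, 138 and 112 CPM against 51.5, 34.4 and 34.5 CPM in the ACSA-2 and at 51.3, 54.9 and 81.6 against 88.9, 165 and 150.5 CPM in the CD11b fraction. Both promoters thus belong to genes whose vector groups were apart and opposite, with interactions of -2.85 (SE 0.40) and -2.75 (SE 0.43) and an edgeR adjusted p of 0.0438 each. The share with the full motif among these genes was close to that of all promoters.

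Opposite and shared responses were then counted without a test, among the 9583 genes with a mean of at least 5 CPM in each fraction, as genes whose vector groups did not overlap in either fraction and whose log2 responses exceeded 0.32 in size in both. By fraction, the groups did not overlap with AAV-A2A higher in 7.49% and lower in 10.5% of the 18602 tested genes for ACSA-2, and in 10.8% and 10.6% for CD11b. These shares include genes of low level, which the 9583 leave out. Of the 11619 genes with a mean of at least 5 CPM over all libraries, 2543 were apart in the ACSA-2 fraction. In the CD11b fraction 2943 of the 11619 were apart, both counts covering either direction. Opposite responses numbered 292 with AAV-A2A lower in the ACSA-2 and higher in the CD11b fraction (3.05%) and 92 the other way (0.96%). Shared responses numbered 52 upward (0.543%) and 63 downward (0.657%). With the length offset 113 of the 292, 40 of the 92, 22 of the 52 and 49 of the 63 were counted again, and the total lower in ACSA-2 and higher in CD11b became 128. The median longest transcript was 4700.5 bases in the first class of opposite genes and 1791.5 in the second.

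**Figure D4:**
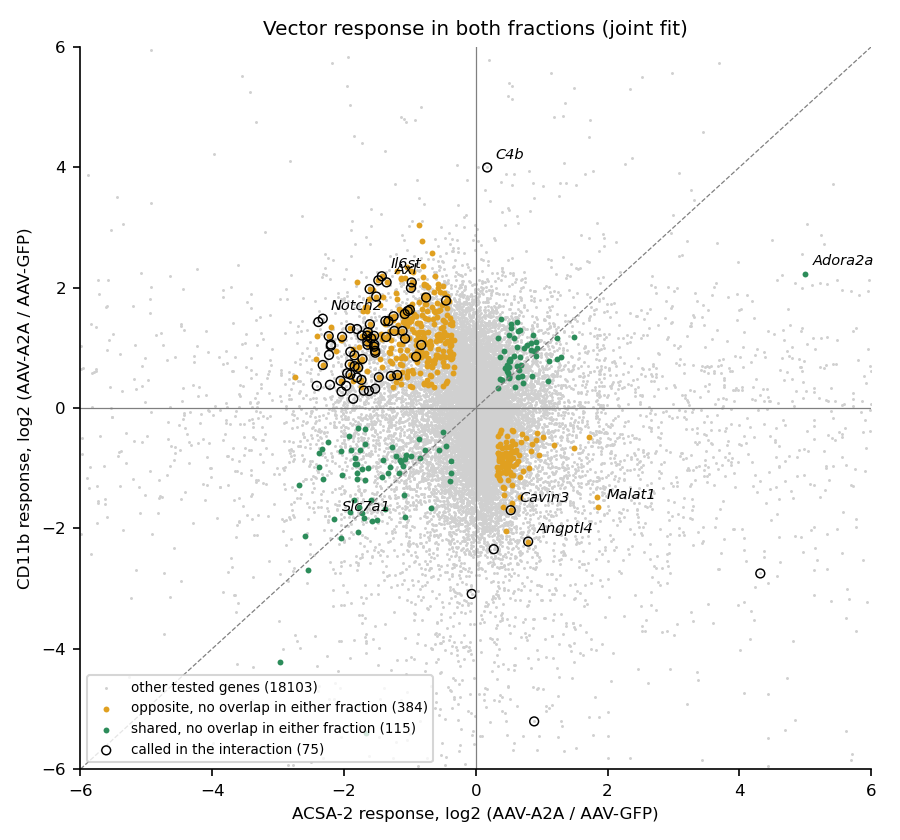
Log2 response of each tested gene in the ACSA-2 (x axis) and CD11b fraction (y axis), with opposite genes in yellow, shared genes in green, the 75 genes called in the interaction circled and a dashed line of equal responses. Most circled genes lie in the upper left, lower in ACSA-2 and higher in CD11b, and 292 opposite genes are of that kind against 92 of the other.

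Among genes lower in the ACSA-2 and higher in the CD11b fraction, those with the largest response in their weaker fraction included Dagla and Frs2. Dagla, which makes the endocannabinoid 2-arachidonoylglycerol, stood at 17.0, 10.5 and 16.1 CPM in ACSA-2 AAV-GFP and at 6.38, 3.57 and 2.48 CPM in AAV-A2A libraries, and at 2.19, 3.18 and 10.1 against 12.3, 35.2 and 18.7 CPM in the CD11b fraction. Frs2, the docking protein of fibroblast growth factor receptors, stood at 36.4, 27.8 and 23.6 against 16.3, 4.73 and 5.78 CPM in the ACSA-2 and at 12.2, 8.26 and 9.63 against 14.0, 44.1 and 34.0 CPM in the CD11b fraction. The response of Frs2 was -1.71 (SE 0.52) and 1.61 (SE 0.52), nearly equal in size. Nup188, a nuclear pore scaffold, Mtmr4, an endosomal lipid phosphatase, and Spata13, a guanine nucleotide exchange factor, had interactions of -3.36, -3.34 and -3.44. None of these 5 was called, with edgeR adjusted p-values from 0.0615 to 0.0701.

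Malat1 was among those with the largest response in their weaker fraction in the other direction. This nuclear noncoding RNA (ENSMUSG00000092341, chromosome 19, 5795690 to 5802672) stood at 1187, 948 and 567 CPM in ACSA-2 AAV-GFP and at 2255, 6017 and 1503 CPM in AAV-A2A libraries. CD11b levels were 1125, 879.5 and 826 CPM in AAV-GFP and at 388, 358 and 161 CPM in AAV-A2A libraries. The groups were apart in both fractions, and the interaction of 3.50 (SE 0.76) was not called (edgeR adjusted p = 0.0621). It passed with the length offset and the choroid plexus term together, at 4.25 (edgeR adjusted p = 0.0435). Akap9, a scaffold that anchors protein kinase A at the Golgi and centrosome, stood at 44.5, 60.8 and 57.4 against 93.3, 111 and 81.4 CPM in the ACSA-2 and at 137, 119 and 92.3 against 55.8, 41.4 and 77.6 CPM in the CD11b fraction. Its interaction was 1.81 (SE 0.39, edgeR adjusted p = 0.0621), and 2.01 with the offset, although its transcript is 13123 bases long. Sat2, a polyamine acetyltransferase-like gene of 1016 bases, went from 1.77 to 0.63 with the same offset. Gkn3 and Tmem191c had interactions of 3.32 and 1.74, neither called (edgeR adjusted p = 0.126 and 0.0847).

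Responses in a common direction were tested as the mean of both fractions. Of 18602 genes 21 fell (0.113%) and 2 rose (0.0108%) by edgeR's test, with 2475 at an unadjusted p under 0.05. The count went from 1 to 528 over the 26 alternatives. The 2 genes that rose were Adora2a and Serpina3n, an acute-phase protease inhibitor of reactive astrocytes. Serpina3n stood at 46.2, 72.3 and 59.4 CPM in ACSA-2 AAV-GFP and at 239.7, 197 and 228 CPM in AAV-A2A libraries, and at 1.48, 2.47 and 1.07 against 2.45, 3.79 and 3.70 CPM in the CD11b fraction, where the groups overlapped. Its mean response was 1.44 (SE 0.23, edgeR adjusted p = 0.0446), carried mostly by the ACSA-2 response of 1.90 (SE 0.32).

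Slc7a1 was among the genes that fell in the mean of both fractions. Slc7a1 (ENSMUSG00000041313, chromosome 5, 148327410 to 148399904), the cationic amino acid transporter that imports arginine, stood at 252, 294 and 299 CPM in ACSA-2 AAV-GFP and at 85.9, 58.0 and 46.1 CPM in AAV-A2A libraries. In the CD11b fraction it stood at 143, 218 and 145 CPM in AAV-GFP and at 69.6, 32.8 and 38.2 CPM in AAV-A2A libraries. Its responses, -2.15 (SE 0.35) and -1.85 (SE 0.35), were close, and their mean of -2.00 (SE 0.25) passed with an edgeR adjusted p of 0.0261, as it did with the length offset (-2.03, adjusted p = 0.0381). Their difference was -0.31 (SE 0.48).

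Sox6, a transcription factor of the SoxD group, stood at 730.1, 634 and 602 CPM against 229, 218 and 216 CPM in the ACSA-2 and at 14.5, 8.29 and 10.2 against 3.02, 2.43 and 3.51 CPM in the CD11b fraction. Its mean response was -1.72 (SE 0.19, edgeR adjusted p = 0.0116). Sox6 is also expressed by oligodendrocyte precursors, whose summed markers were lower in the AAV-A2A libraries of the ACSA-2 fraction and overlapped in the CD11b fraction (58.3 to 81.8 against 72.0 to 146 CPM). Flt1, a receptor of vascular endothelial growth factor and an endothelial marker, stood at 160.4, 197 and 193 against 47.4, 77.5 and 46.0 CPM in the ACSA-2 and at 267, 391 and 142 against 64.0, 78.7 and 83.9 CPM in the CD11b fraction. The groups of Sox6 and Flt1 did not overlap in either fraction, and the mean response of Flt1 was -1.75 (SE 0.25, edgeR adjusted p = 0.0344). Summed endothelial markers were 2675 to 3170 CPM in AAV-GFP and 2710 to 3747 CPM in AAV-A2A ACSA-2 libraries. In the CD11b libraries they were 2434 to 7552 CPM in AAV-GFP and 1513 to 3295 CPM in AAV-A2A. The sums thus overlapped between the vectors in both fractions, and Flt1 is itself among the 12 markers summed. In the CD11b fraction 6 of the 12 were lower in AAV-A2A without overlap (50%, against 10.6% of all tested genes) and 0 higher. Among choroid plexus-poor CD11b libraries the sum was 2434 CPM in AAV-GFP and 1658 and 1513 CPM in AAV-A2A. Among the rich ones it was 6265 and 7552 CPM in AAV-GFP and 3295 CPM in AAV-A2A. The part of endothelial transcripts in the Flt1 response was not tested.

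Irs2, an adaptor of the insulin receptor, fell in the mean of both fractions with responses of -1.73 (SE 0.40) and -1.75 (SE 0.40) and a mean of -1.74 (SE 0.28, edgeR adjusted p = 0.0488). Insr, the insulin receptor itself, stood at 210.1, 401 and 394 against 83.1, 29.2 and 43.7 CPM in the ACSA-2 and at 228, 186 and 181 against 132, 42.6 and 69.9 CPM in the CD11b fraction, without overlap in either. Its mean response of -1.99 (SE 0.34) missed the threshold (edgeR adjusted p = 0.0546), while its fall in the ACSA-2 fraction passed alone (adjusted p = 0.006). Dab2ip and Jcad, regulators of Ras and junctional signalling, had mean responses of -2.10 (edgeR adjusted p = 0.0446) and -1.92 (adjusted p = 0.0379). Spry2, a feedback inhibitor of receptor tyrosine kinase signalling, was apart in both fractions without passing in the mean (-2.36, edgeR adjusted p = 0.0893). Ccdc120 had a mean response of -2.62 that did not pass either (edgeR adjusted p = 0.157). Slc17a7, the glutamate transporter of excitatory neurons and a neuronal marker, ranged from 4.88 to 24.4 CPM in ACSA-2 AAV-GFP and from 0.0217 to 3.44 CPM in AAV-A2A libraries, and in the CD11b fraction from 3.68 to 49.0 and from 0 to 2.34 CPM. Summed neuron markers overlapped between the vectors in the ACSA-2 fraction (115 to 166 against 107 to 144 CPM) and, as given above, not in the CD11b fraction.

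Of the genes higher in both fractions without overlap, Adora2a aside, none was called in the mean. Rps6ka5, the nuclear kinase MSK1 that phosphorylates CREB, stood at 2.48, 8.71 and 5.61 against 15.0, 13.2 and 11.4 CPM in the ACSA-2 and at 6.26, 8.31 and 13.3 against 19.4, 26.9 and 16.0 CPM in the CD11b fraction. Its mean response was 1.20 (SE 0.33, edgeR adjusted p = 0.21). Rev1, a translesion DNA polymerase, Parg, which degrades poly(ADP-ribose), Zfx, a zinc finger transcription factor, and Tut4, an RNA uridylyltransferase, had mean responses of 1.34, 0.96, 1.00 and 0.92. Their edgeR adjusted p-values ran from 0.157 to 0.254, and with the length offset 22 of the 52 genes of this class were counted again.

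The genes were also split by where they were expressed, as those at least 3 log2 units higher in either fraction and those between. The 1303 genes higher in the ACSA-2 libraries held 6 of the 7 genes with a positive called interaction and none of the 68 with a negative one. Their median response was 0.03 in the ACSA-2 and -1.05 in the CD11b fraction. The 1301 genes higher in the CD11b libraries held 0 and 3 of the called genes, with medians of -0.02 and 0.68. The remaining 15998 genes held 1 and 65, with medians of 0.00 and -0.10. With the choroid plexus term the CD11b medians of the first and second class were -0.66 and 0.47. Of the 68 negative calls 65 lay in the class between, which also holds 15998 of the 18602 tested genes. The classes used the levels of all 12 libraries, those with AAV-A2A included. In the CD11b libraries, the class higher in ACSA-2 was lower and the class higher in CD11b was higher in AAV-A2A on median. The summed astrocyte and microglia markers overlapped between the vectors. Between the choroid plexus-poor CD11b libraries the median difference was 0.09 over 12 astrocyte markers and -0.29 over 12 microglia markers. Between the rich ones these medians were -0.70 and 0.44.

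Gene lists of 26 pathways were described by their counts and medians. Beside their counts stand the shares over the 18602 genes tested in the joint fit. By the test of the ACSA-2 fraction alone these were 2.81% lower and 0.156% higher. Without overlap they were 10.5% lower in the ACSA-2 fraction, and 10.6% lower and 10.8% higher in the CD11b fraction. The mitochondrial genome and respiratory chain lists, which have short transcripts, had the highest median interactions of the 26. The 37 complex I subunits, which take electrons from NADH, had a median response of 0.19 in the ACSA-2 and -1.49 in the CD11b fraction, and 21 of them (56.8%) were lower without overlap in the CD11b AAV-A2A libraries. The 36 genes of complexes III, IV and ATP synthase had medians of 0.16 and -1.54, with 7 lower without overlap (19.4%), and the 75 cytosolic ribosomal proteins 0.20 and -0.80, with 29 lower (38.7%). The 8 mRNAs of the mitochondrial genome had medians of 0.45 and -2.29, with 5 lower (62.5%). No member of these 4 lists was called in the interaction.

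With the length offset the median interaction of complex I went from 1.66 to 0.74, that of complexes III to V from 1.66 to 0.68, that of the mitochondrial mRNAs from 2.86 to 1.34 and that of ribosomal proteins from 0.96 to 0.11. The corresponding medians over all tested genes were 0.10 and 0.06. Complex I subunit Ndufs7 stood at 445, 367 and 368 against 531, 504 and 485 CPM in the ACSA-2 and at 213, 207 and 159.6 against 126, 54.4 and 93.8 CPM in the CD11b fraction, opposite without overlap, and its interaction was 1.44 (SE 0.43, edgeR adjusted p = 0.113). The mitochondrial mRNA mt-Cytb stood at 4514, 3344 and 849 CPM in CD11b AAV-GFP and at 774, 712 and 569.8 CPM in AAV-A2A libraries. Its 2 high values were the choroid plexus-rich libraries DDBM316 and DDBM317, and the difference was -0.19 between the choroid plexus-poor libraries and -2.77 between the rich ones.

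**Figure D5:**
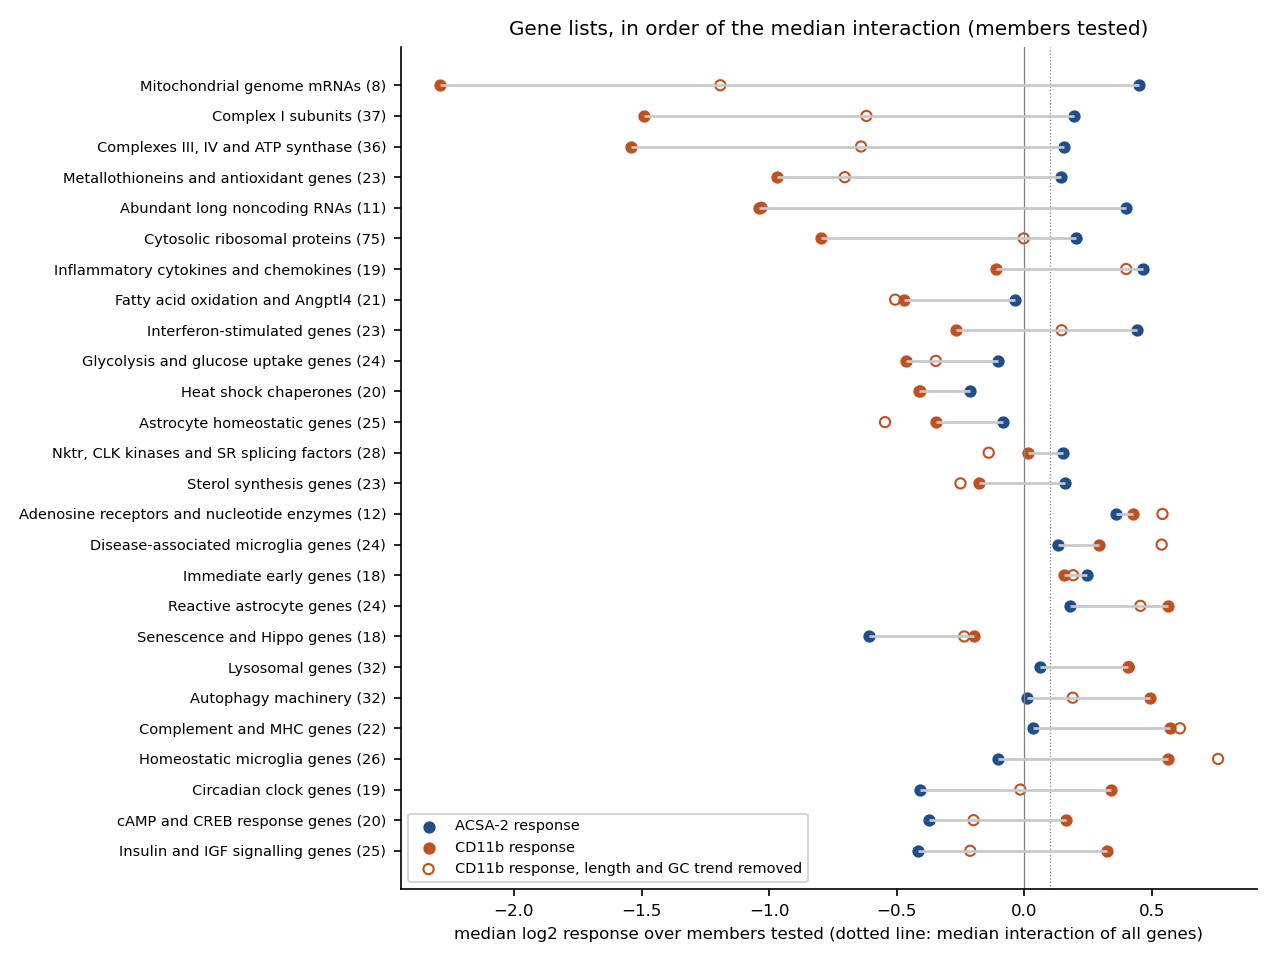
Median log2 response of each of 26 gene lists in the ACSA-2 (blue) and CD11b fraction (orange), joined by a line, with open circles for the CD11b response after the length offset, lists in order of their median interaction, and a dotted line at the median interaction of all tested genes. Respiratory, ribosomal and metallothionein lists lie low in the CD11b fraction (-2.29 to -0.80), while insulin, cyclic AMP and clock lists lie below 0 in the ACSA-2 (-0.42 to -0.38) and above 0 in the CD11b fraction. With the length offset the CD11b medians of the insulin, cyclic AMP and clock lists were -0.21, -0.20 and -0.02, no longer above 0.

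Metallothioneins and antioxidant genes (23) had medians of 0.14 and -0.97, with 7 lower without overlap in the CD11b fraction (30.4%) and none called. Long noncoding RNAs (11) had medians of 0.40 and -1.04 with an interaction of 1.04 that was 1.38 with the length offset. Among the 21 genes of fatty acid oxidation, Angptl4 was called and the median interaction was 0.52.

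In the ACSA-2 fraction 9 of the 26 lists had a negative median, and the senescence and Hippo, insulin, clock and cyclic AMP lists had the lowest. Of 25 insulin and insulin-like growth factor genes 5 (20%) fell in the ACSA-2 fraction tested alone (edgeR) and none rose. Without overlap 10 (40%) were lower in the ACSA-2 and 8 (32%) higher in the CD11b fraction, and the medians were -0.42 and 0.33. Of 20 cyclic AMP and CREB response genes, those next to the receptor's own pathway, 3 (15%) fell in the ACSA-2 fraction, 8 (40%) were lower there without overlap, and the medians were -0.38 and 0.16. The 18 senescence and Hippo genes had medians of -0.61 and -0.20, with 5 falls (27.8%) in the ACSA-2 fraction. The 19 clock genes had 4 falls (21.1%) and medians of -0.41 and 0.34. The median interactions of the insulin, cyclic AMP and clock lists, -0.82, -0.76 and -0.65, became -0.33, -0.34 and -0.30 with the length offset, and none of their members was called in the interaction. With the offset their medians were -0.17, -0.27 and -0.29 in the ACSA-2 and -0.21, -0.20 and -0.02 in the CD11b fraction. The opposite signs of the fractions were thus absent with the offset. Sik2, a kinase that holds back CREB coactivators and is inhibited by protein kinase A, is not in the list but was called, with an interaction of -2.59 (SE 0.37, edgeR adjusted p = 0.0438), and was chosen after its value was seen.

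Immune and lysosomal lists differed among themselves in the CD11b fraction. The 26 homeostatic microglia genes had medians of -0.10 and 0.56 and no called member, with CD11b differences of -0.16 between the choroid plexus-poor and 0.55 between the rich libraries. The 32 lysosomal genes had medians of 0.06 and 0.41, with CD11b differences of -0.06 between the choroid plexus-poor and 0.44 between the rich libraries, and Atp6v0a1, a subunit of the vacuolar proton pump, was called. It stood at 220.2, 247 and 183 against 64.5, 19.0 and 46.4 CPM in the ACSA-2 and at 151, 132 and 183 against 215, 246 and 305 CPM in the CD11b fraction, with an interaction of -3.04 (SE 0.54, edgeR adjusted p = 0.0438). Of 24 disease-associated microglia genes Axl alone was called, of 24 reactive astrocyte genes and 22 complement and MHC genes C4b alone. The 23 interferon-stimulated genes and 19 cytokines and chemokines had negative CD11b medians, -0.27 and -0.11, and median interactions of 0.43 and 0.56 with no call. The other lists held no called member, and their median interactions lay between -0.42 and 0.36.

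Genes singled out by the study for one fraction were followed in both. Cdk6, a kinase of cell cycle entry, stood at 42.1, 44.3 and 53.7 CPM in ACSA-2 AAV-GFP and at 5.26, 5.91 and 3.84 CPM in AAV-A2A libraries, a fall that passed in this fraction (edgeR adjusted p = 0.00106). In the CD11b fraction it stood at 21.5, 27.6 and 85.2 against 67.2, 32.0 and 23.9 CPM, which overlapped. The difference between the fractions, -3.10 (SE 0.74), did not pass (edgeR adjusted p = 0.0727), but did with the choroid plexus term (-2.81, adjusted p = 0.0188). Timp1, an inhibitor of metalloproteinases, rose in the ACSA-2 fraction from 0, 0.329 and 0.374 to 11.7, 5.01 and 6.71 CPM and stayed under 1 CPM in every CD11b library. Its interaction of 5.76 (SE 1.57) did not pass either (edgeR adjusted p = 0.0965).

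Glul, which encodes glutamine synthetase, stood at 17852, 11524 and 11057 CPM in ACSA-2 AAV-GFP and at 4382, 2958 and 3775 CPM in AAV-A2A libraries, and at 429, 570.2 and 686 against 666, 222 and 173 CPM in the CD11b fraction. It fell in the ACSA-2 fraction (edgeR adjusted p = 0.00386), and its interaction was -1.20 (SE 0.70, adjusted p = 0.372). Stat3, a transcription factor downstream of gp130, had an ACSA-2 response of -1.47 (SE 0.45) and an interaction of -1.93 (SE 0.63, edgeR adjusted p = 0.135). Tested alone, the ACSA-2 fraction gave a Stat3 response of -1.45, which passed (edgeR adjusted p = 0.0334). Adora2b, the low-affinity Gs-coupled adenosine receptor, stood at 83.0, 118 and 104 against 183, 179.6 and 267 CPM in the ACSA-2 and at 58.4, 34.6 and 4.80 against 2.39, 5.68 and 30.5 CPM in the CD11b fraction. It rose in the ACSA-2 fraction (edgeR adjusted p = 0.0299), and its CD11b level was highest in the 3 choroid plexus-rich libraries, with an interaction of 2.39 (SE 1.23, adjusted p = 0.312).

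The glutamate transporters Slc1a2 and Slc1a3, the astrocyte filament gene Gfap, and Cd68 and Aif1, a lysosomal and a cytoplasmic protein of microglia, had interactions of 0.62 (SE 0.82), -0.29 (SE 0.65), -0.03 (SE 0.81), 0.45 (SE 1.05) and 0.50 (SE 0.89). None passed, with edgeR adjusted p-values from 0.723 to 0.988, and each changed sign under at least 1 alternative. Il33, Hmgb1, Yap1 and Mmp15 had interactions of 0.91 (SE 0.69), -0.19 (SE 0.44), -0.22 (SE 1.15) and -2.88 (SE 1.27), which did not pass (edgeR adjusted p from 0.24 to 0.94). The sign of the first 3 changed under at least 1 alternative.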

How the data were processed

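RNA of ACSA-2- and CD11b-sorted hippocampal cells was amplified to full-length cDNA, tagmented, amplified again and sequenced. The authors deposited 1 table for each fraction, of raw counts per Ensembl gene identifier without normalization. The submitters' processing notes name bcl2fastq, cutadapt 1.10, STAR 2.5.3, HTSeq 0.6.1p1 and mm10, and the study's methods count uniquely aligned, unambiguous reads. The strand setting is not given in the sources used here, so overlapping antisense genes have uncertain counts. The 25 unnamed empty columns of the CD11b table were not used. Genes in only one table held at most 0.0747% of a library's counts.

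Counts were fitted with edgeR 4.0.16 (R 4.3.3) over the 4 groups with TMM scaling, filterByExpr and the robust quasi-likelihood test. The test was also run on simulated counts, whose spread was capped below that of these libraries (biological coefficient of variation 0.676). That run therefore does not show how the test performs on these data. Adjusted p-values are Benjamini-Hochberg over all genes tested in a fit, and calls need an adjusted p under 0.05 and an absolute log2 value over 0.32. CPM are TMM-scaled. The single-fraction tests used each whole table. Depth was 33937067 to 53206974 counts per library, and replicates of a group differed far beyond sampling noise (chi-square per degree of freedom 51.8 to 1248).

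Alternatives were DESeq2 1.42.0, limma-voom and limma-trend (limma 3.58.1), other scaling, filters and thresholds, and each library left out. Chosen after the data were seen were a term for the CD11b libraries with over 10000 CPM of choroid plexus markers, their removal, and an offset for each library's trend on length and GC content of the longest transcript (lowess span 0.3, GENCODE annotation of GRCm38).

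Genes named are Adora2a, the 10 called genes with the largest interaction in each direction among those of at least 5 CPM in a group and without overlap in a fraction (filled by p, as not called), the 6 largest of each shared or opposite class, the abundant and called members of each gene list, marker genes, and genes the study names. Called in the mean response or the interaction but outside this rule and chosen after their values were seen are Serpina3n, Sox6, Flt1, Notch1, Etv3, Mef2d, Ncoa2, Hcfc1, Kdm5b, Arid2, Clasp2, Ap2b1 and Sik2. The members and lists were chosen with earlier results of these data known. Plots used Python 3.11.15 and matplotlib 3.10.9.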

Additional observations from a re-analysis of the deposited data

Results flagged for a closer look

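The test of the difference between the fractions singled out 75 genes, which were described above. Among called genes of at least 5 CPM in a group, Irf4 and Itgal had the largest negative interactions, lower in the ACSA-2 fraction. The next were -3.82 (C4b), -3.82 (Rhbdf2), -3.81 (Notch2), -3.62 (Il6st), -3.60 (Man2a2), -3.59 (Adar), -3.44 (Axl) and -3.43 (Polr2a) on the log2 scale. In the other direction, besides Kcng4, they were 2.23 (Cavin3), 2.62 (6330403K07Rik), 3.01 (Angptl4), 3.03 (Ankrd66) and 6.09 (A430027H14Rik). The fitted values of Irf4 (-10.61), Itgal (-10.25) and Kcng4 (7.12) rest on groups without a count and depend on the prior count of the fit. That of A430027H14Rik rests in part on the low CD11b levels given above.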

How the results depend on the processing

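The 75 interaction calls became 1552 with DESeq2, 167 with limma-trend, 160 with limma-voom weighted per fraction, 136 with a filter of 10 counts in 3 libraries of each fraction, 10 with median-of-ratios scaling and 0 with library size alone (3921 genes at an unadjusted p under 0.05). Of the settings added after the data were seen, the choroid plexus term gave 770 (158 higher, 612 lower), leaving out the choroid plexus-rich libraries 0 (2235 at an unadjusted p under 0.05), and the length offset 0 (2575). Leaving out 1 library gave 0 to 1286. It was 830 without AAV-A2A DDBM321, 1286 without AAV-GFP DDBM319, 41 without DDBM309, 1 without DDBM322 and 0 without any other. The split of higher against lower calls was 630 to 922 with DESeq2 and 15 to 39 with offset and choroid plexus term together.

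The 23 calls in the mean response became 528 (DESeq2), 45 (limma-voom), 54 (limma-trend), 55 (limma-voom weighted per fraction), 154 (choroid plexus term), 7 (without the choroid plexus-rich libraries) and 179 (offset and term), or 1 to 159 with a library left out. The 553 ACSA-2 calls became 1071 with DESeq2, 156 in the fit of all libraries and 272 to 448 with a library left out. The 0 CD11b calls became 798 with DESeq2, 308 with the choroid plexus term in the fit of all libraries (0 with it in the fraction's own fit) and 3 without the choroid plexus-rich libraries, and stayed at 0 with any library left out. The cause of these changes was not tested.

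A threshold of 1 on the log2 responses left 3 shared up, 28 shared down, 2 opposite up and 78 opposite down genes (up or down in ACSA-2). Without the choroid plexus-rich libraries they numbered 119, 188, 213 and 475, and with a library left out 54 to 138, 67 to 185, 96 to 257 and 286 to 526, fewer libraries leaving less room to overlap. Opposite up genes were 170 with library size alone and 145 with median-of-ratios factors, and opposite down genes 128 with the offset. A class limit of 2 put 7 calls, not 3, among genes higher in CD11b.

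Interactions that changed sign belonged to genes that were not called. The Gfap interaction turned to 0.0499 (DESeq2), 0.22 (limma-voom), 0.11 (limma-trend), 0.0502 (median-of-ratios), 0.21 (library size), 0.24 (weighted), 0.0385 (TMM within fractions), 0.0237 (choroid plexus term), 0.23 (offset) and 0.18 (both), with -0.42 to 0.94 when a library was left out. The Cd68 interaction turned to -0.0923 (limma-voom), -0.0683 (limma-trend), -0.10 (weighted), -0.27 (offset) and -0.0529 (offset and term), with -1.08 to 1.05 on leaving one out. The Slc1a3 interaction turned to 0.10 (term), 0.11 (without the rich libraries), 0.19 (offset) and 0.61 (both), with -0.85 to 0.0305 on leaving one out. The Yap1 interaction turned to 0.44 with the offset (-0.873 to 1.202 on leaving one out), the Aif1 interaction to -0.55 (offset) and -0.18 (both; -0.42 to 1.16), the Hmgb1 interaction to 0.0228 (library size) and 0.10 (term; -0.44 to 0.0927), the Il33 interaction to -0.0547 (both) and the Slc1a2 interaction to -0.55 without the rich libraries. Of 1506 values of named genes under the alternatives, 1096 kept direction and side of the threshold, 275 lost the call, 96 gained it and 39 changed sign. No paired analysis was made, since the sources used here do not say which libraries share an animal. The fits treated all libraries as independent. Genes under 1 CPM rest on few counts.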
